A study of Homo sapiens with 16 samples.

Results

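CTGF and 9 other genes of the YAP/TEAD pathway (CYR61, ANKRD1, AMOTL1, AMOTL2, YAP1, WWTR1, TEAD1, LATS2 and AXL) were read over all libraries, 10 of the 26485 genes in the count table. They were found by their symbols, of which CTGF and CYR61 are the older names of CCN2 and CCN1. CTGF was chosen by its higher counts after siGGGGGC in PC3 cells, and the other 9 genes are further targets and regulators of the pathway. The values of siGGGGGC against siNT1 in PC3 cells are therefore a description. Counts of genes called in that contrast are given beside the share of all genes, and nothing is read from them. RNA was sequenced from PC3, a prostate cancer cell line, and HeyA8, an ovarian cancer cell line, both wild type by their descriptions. Each line was mock-treated or transfected, with RNAiMax as the reagent, with siNT1, siGGGGGC or siCAG and collected after 24 or 48 h. siNT1 is the nontoxic control siRNA, siGGGGGC carries GGGGGC as the 6 bases of its guide strand seed (the stretch that pairs with target RNA) and is called siMxy in the sample titles, and siCAG is known here by its name only. The descriptions give an siRNA dose of 1 nM, where the methods of the study name a higher one. Each line, siRNA and time has 1 library (16 in all), and the libraries of 24 and 48 h serve as 2 replicates, whose SD takes in any change over time. By the methods of the study the times come from different wells, and the descriptions do not name separate cultures, so p-values measure the spread between these libraries only.

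YAP1 and WWTR1 (also called TAZ) are co-activators that do not bind DNA themselves. When the kinases LATS1 and LATS2 of the Hippo pathway phosphorylate them they are kept in the cytoplasm and degraded, and when they are not phosphorylated they enter the nucleus and switch on genes through the TEAD family of DNA-binding proteins. CTGF, CYR61, ANKRD1 and AMOTL2 are widely used readouts of this activity, and LATS2 and AMOTL2 are both targets and inhibitors of it. Much of the regulation acts on the proteins, which RNA counts do not show.

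In hg38 (GENCODE release 44) the readout genes CTGF, CYR61 and ANKRD1 lie at chr6:131948177-131951378, chr1:85580761-85583965 and chr10:90912100-90921275, and AXL at chr19:41219199-41261767. The co-activators YAP1 and WWTR1 lie at chr11:102110461-102233423 and chr3:149517235-149703273, and TEAD1 at chr11:12674422-12944737. The inhibitors LATS2, AMOTL1 and AMOTL2 lie at chr13:20973036-21061583, chr11:94768342-94876753 and chr3:134355345-134375417. CTGF, ANKRD1, AMOTL2, WWTR1 and LATS2 are on the minus strand and the others on the plus strand. The promoters of CTGF and ANKRD1 are shown because GGAATG, the core of the TEAD binding motif, occurs more often in them than in those of the other genes searched. The promoters, 300 bases each with 250 before and 50 after the start, come from RefSeq (GRCh38.p14). GGAATG was searched on both strands and stands in capitals. The stretches shown run from 230 to 81 bases before the start, 5′ to 3′ on the strand of the gene, at chr6:131951453-131951602 and chr10:90921168-90921317.
CTGF: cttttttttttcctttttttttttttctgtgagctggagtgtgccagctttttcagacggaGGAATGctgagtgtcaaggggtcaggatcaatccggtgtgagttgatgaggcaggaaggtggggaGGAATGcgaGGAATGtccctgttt
ANKRD1: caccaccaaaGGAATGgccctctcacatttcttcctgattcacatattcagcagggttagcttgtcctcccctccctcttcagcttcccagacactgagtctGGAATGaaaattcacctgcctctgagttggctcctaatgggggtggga
CTGF held 3 matches, which began 169, 104 and 95 bases before the start, and ANKRD1 held 2, at 220 and 128 bases. Of 35116 promoters in the RefSeq set, 14% held at least 1 match and 0.128% held at least 3. One match each was found in the promoters of YAP1 and LATS2 and in 1 of the 2 promoters listed for AMOTL2 and for AXL, and 0 in those of AMOTL1 and WWTR1. CYR61 and TEAD1 were not part of this search. A match is a description of the sequence and not evidence of binding.

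The second sequence of interest is GCCCCC, the reverse complement of the siGGGGGC seed, in the longest annotated 3′ UTR of a gene. It was found in 4 of the 10 genes, against 30.2% of 19225 protein-coding genes. AXL and TEAD1 held 2 matches each, AMOTL2 held 2 and AMOTL1 held 1, while CTGF, CYR61, ANKRD1, YAP1, WWTR1 and LATS2 held 0. The sites of AXL and TEAD1 are shown as an example picked after the values were seen. After siGGGGGC both genes were lower than after siNT1 in PC3 cells, and in HeyA8 cells AXL was lower and TEAD1 higher. TEAD1 was not called in either line. The sites of AMOTL2, with the same number of matches, are not shown. The match is in capitals with 10 bases on each side, 5′ to 3′ on the plus strand of hg38, on which both genes lie, and the capitals span chr19:41261588-41261593, chr19:41261671-41261676, chr11:12939615-12939620 and chr11:12941387-12941392.
AXL, first site: gtgggggtgtGCCCCCttcaagcctg
AXL, second site: gggccatgttGCCCCCgtgagccaat
TEAD1, first site: ggtcagctggGCCCCCctggtgcttc
TEAD1, second site: ccaaaaaacaGCCCCCattccaagta

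Between 27937092 and 29971612 reads were counted per PC3 library (median 28520015) and between 29128446 and 31790209 per HeyA8 library (median 30537650). Counts were scaled by TMM (a correction for library size and composition) within each line, and all 10 genes passed the filter on low counts in both lines. PC3 libraries held 0 reads of PTRF, a caveolar gene that PC3 cells lack. HeyA8 libraries held 395 to 1050 CPM (counts scaled to the same library total) of PTRF and 60.1 to 220 CPM of PAX8, a marker of ovarian carcinoma. The other ovarian markers overlapped between the lines over all libraries, with WT1 at 5.99 to 16.7 CPM in HeyA8 and 9.5 to 14.4 CPM in PC3 libraries and MUC16 at no more than 0.157 and 0.709 CPM. The 5 prostate luminal markers summed to 23.3 to 44.9 CPM in PC3 libraries, with TMPRSS2 as the most abundant (17.4 to 39.4 CPM) and KLK3 and KLK2 at 0 in all libraries, so the labelled tissue showed little of its luminal programme. The 2 leukocyte markers did not pass 0.423 CPM in any library. The 4 fibroblast markers summed to 23.5 to 65.1 CPM in PC3 and 3.27 to 41.3 CPM in HeyA8 libraries, nearly all of it COL1A1, with COL1A2, DCN and LUM at no more than 0.705 CPM each, and the 2 endothelial markers to at most 5.31 CPM, while the mesenchymal gene VIM stood at 850 to 1180 CPM and 4100 to 7300 CPM. One pair of libraries stood apart from the rest. The HeyA8 siCAG libraries of 24 and 48 h correlated at r = 0.9287 across genes (log2 CPM), against at least 0.9739 for the pairs of the other conditions, and the comparisons of the 10 genes within HeyA8 cells that do not concern siCAG are also given without them.

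The plot of normalized counts in all libraries shows the 10 genes by line, siRNA and time.

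**Figure D1:**
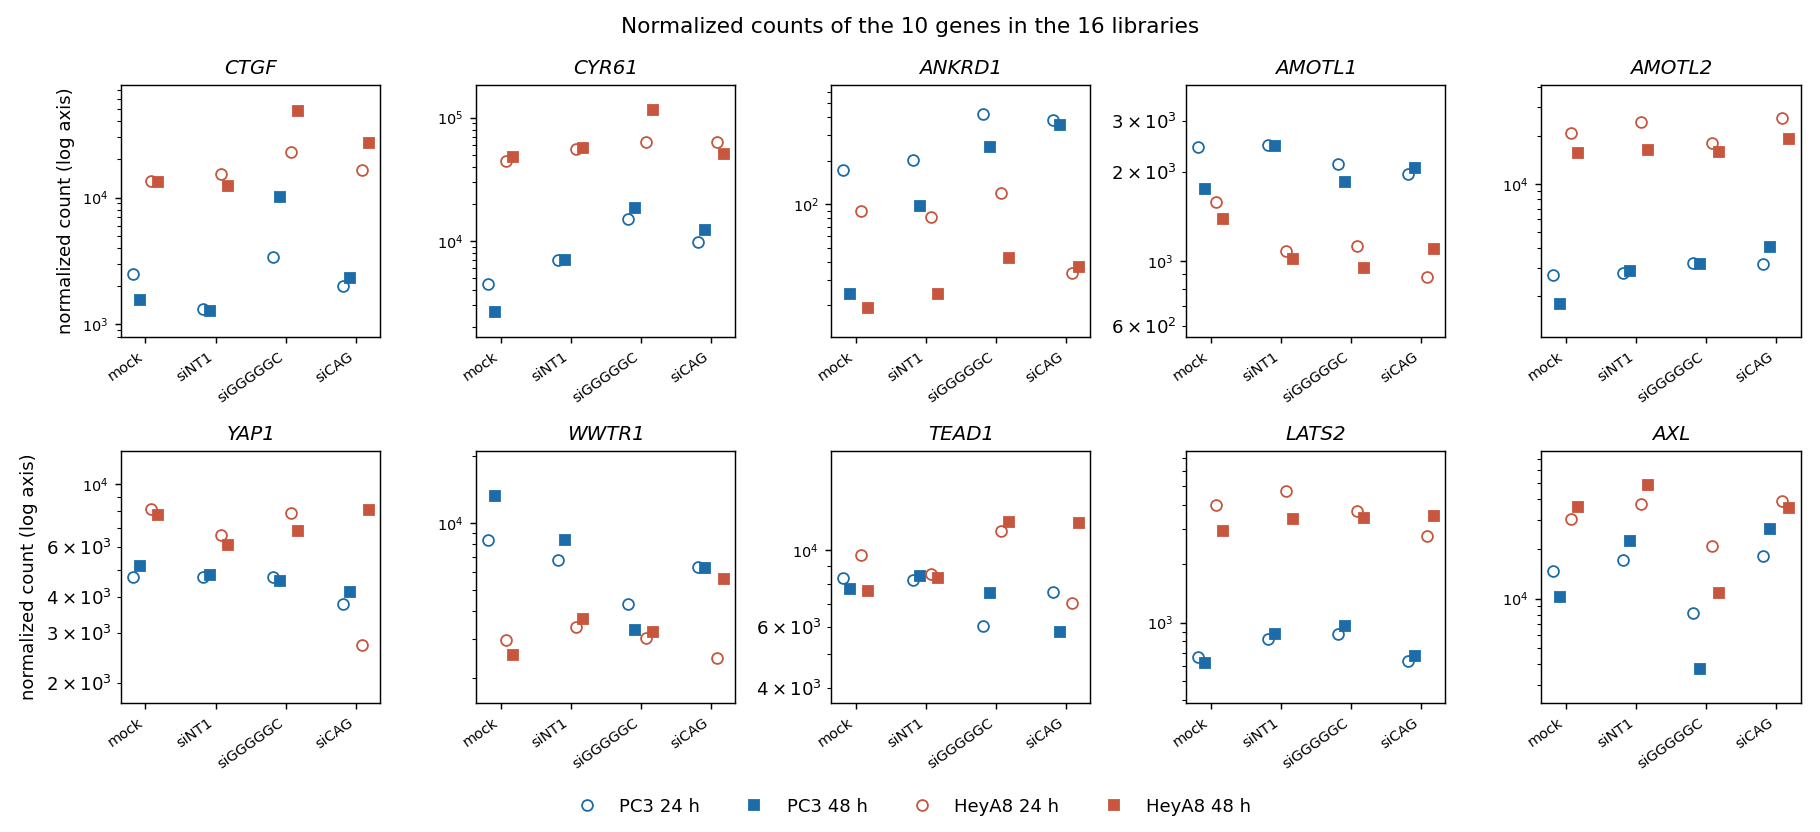
Normalized counts (log axis, scaled within each line) of the 10 genes by condition. Blue marks are PC3 and red marks HeyA8 libraries, open circles are 24 h and filled squares 48 h, 1 library each. CTGF and CYR61 were highest and AXL lowest in the siGGGGGC library of 48 h in both lines.

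In PC3 cells CTGF, a secreted matrix protein of the CCN family, had 2486 and 1553 normalized counts in the mock libraries of 24 and 48 h, 1311 and 1267 after siNT1, 3372 and 10080 after siGGGGGC, and 1992 and 2318 after siCAG. The 2 siGGGGGC libraries were the highest of the 8, and the siNT1 libraries the lowest. The values of siGGGGGC were 2.57 and 7.95 times those of siNT1 at 24 and 48 h. The fitted log2 fold change was 2.32 (standard error, SE, 0.461), from 1289 ± 31.4 to 6726 ± 4744 normalized counts (SD, n = 2), and the SD after siGGGGGC reflects the distance between the times. In such bulk samples fewer cells of a type and less RNA per cell cannot be told apart.

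CYR61, a secreted matrix protein of the same family, had 4504 and 2658 normalized counts in mock PC3 libraries, 6999 and 7065 after siNT1, 14999 and 18419 after siGGGGGC, and 9794 and 12206 after siCAG. These 4 conditions did not overlap and stood in the order mock, siNT1, siCAG and siGGGGGC. The log2 fold change of siGGGGGC against siNT1 was 1.25 (SE 0.258). ANKRD1, a nuclear ankyrin repeat protein, was scarce, with 173 and 24 normalized counts in mock, 202 and 97 after siNT1, 417 and 249 after siGGGGGC and 380 and 351 after siCAG. Both siRNAs gave values above both siNT1 libraries, with a log2 fold change of 1.21 (SE 0.506) for siGGGGGC.

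AXL, a receptor tyrosine kinase of the TAM family and itself a YAP target, had the opposite pattern. Its normalized counts were 14651 and 10160 in mock PC3 libraries, 17236 and 22303 after siNT1, 8198 and 3735 after siGGGGGC, and 18164 and 26327 after siCAG. The siGGGGGC libraries were the lowest of the 8, 2.1 and 5.97 times lower than siNT1 at 24 and 48 h, and the log2 fold change was -1.77 (SE 0.380), with a range from -2.48 to -1.25 when 1 of the 4 libraries was left out in turn. WWTR1 had 8415 and 13192 normalized counts in mock, 6789 and 8398 after siNT1, 4332 and 3293 after siGGGGGC and 6298 and 6268 after siCAG. It too was lowest after siGGGGGC, with a log2 fold change of -0.98 (SE 0.237).

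The other co-activator, YAP1, varied little in PC3 cells, from 3783 to 5144 normalized counts over the 8 libraries, and its siGGGGGC and siNT1 libraries overlapped. TEAD1, the DNA-binding partner, had 8167 and 8399 normalized counts after siNT1 and 6032 and 7490 after siGGGGGC. LATS2 ranged from 619 to 957, AMOTL1 from 1753 to 2478 and AMOTL2 from 1773 to 4068 normalized counts over the 8 libraries. For TEAD1, LATS2, AMOTL1 and AMOTL2 the log2 fold changes of siGGGGGC against siNT1 were -0.29, 0.11, -0.31 and 0.17 (SEs 0.182, 0.162, 0.175 and 0.22), and none was called. Their siGGGGGC values did not overlap those of siNT1. The share of all genes without such overlap was not computed, so nothing is read from this.

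Of the 10 genes, 4 were called in PC3 cells after siGGGGGC at an adjusted p under 0.05 (CTGF and CYR61 higher, WWTR1 and AXL lower), beside 9.67% of the 15136 genes tested. This contrast chose CTGF, and nothing is read from the count. Without either siNT1 library 0 of the 10 genes and 0 of all genes were called, by edgeR, with 2825 (without 24 h) and 2216 (without 48 h) genes at an unadjusted p under 0.05. Without the 48 h siGGGGGC library 1 of the 10 was called (CTGF), beside 3.99% of all genes.

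The libraries of HeyA8 cells were not used to choose CTGF. CTGF had 13448 and 13165 normalized counts in mock HeyA8 libraries, 15484 and 12405 after siNT1, 22730 and 48397 after siGGGGGC, and 16517 and 27009 after siCAG. The siGGGGGC values were 1.47 and 3.90 times those of siNT1 and did not overlap them. The log2 fold change was 1.26 (SE 0.361, 95% interval 0.405 to 2.12), which did not pass edgeR's quasi-likelihood test after adjustment over all genes (adjusted p = 0.355). With 1 of the 4 libraries left out in turn it ranged from 0.759 to 1.73.

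CYR61 had 44848 and 48387 normalized counts in mock, 55565 and 57047 after siNT1, 63123 and 115101 after siGGGGGC and 63164 and 50670 after siCAG. Its log2 fold change after siGGGGGC was 0.64 (SE 0.283, adjusted p = 0.521 by edgeR), most of it from the 48 h library. AXL had 30127 and 35780 normalized counts in mock, 37520 and 48954 after siNT1, 20748 and 10769 after siGGGGGC and 39227 and 35230 after siCAG. The 2 siGGGGGC libraries were the lowest of the 8, as in PC3 cells, with a log2 fold change of -1.48 (SE 0.336, 95% interval -2.28 to -0.681, adjusted p = 0.262 by edgeR).

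TEAD1 had 9680 and 7626 normalized counts in mock HeyA8 libraries, 8546 and 8324 after siNT1, 11308 and 12059 after siGGGGGC and 7017 and 11973 after siCAG. Both siGGGGGC values lay above those of siNT1, where in PC3 cells both lay below. The log2 fold change was 0.47 (SE 0.29, adjusted p = 0.662 by edgeR). WWTR1 had 3383 and 3691 normalized counts after siNT1 and 3039 and 3232 after siGGGGGC, and ANKRD1 had 81 and 24 after siNT1 and 120 and 43 after siGGGGGC. Over the 8 HeyA8 libraries AMOTL1 ranged from 881 to 1581, AMOTL2 from 15595 to 25841, LATS2 from 2783 to 4741 and YAP1 from 2718 to 8158 normalized counts.

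In HeyA8 cells 0 of the 10 genes and 0% of 13872 genes were called after siGGGGGC by edgeR, with 2 of the 10 (CTGF and AXL) and 1352 of all genes at an unadjusted p under 0.05. DESeq2 called 1 of the 10 (AXL) and 2.29% of the genes. In the fit without the siCAG libraries edgeR called AXL (adjusted p = 0.0485) and 3.52% of the genes. With only the 4 siGGGGGC and siNT1 libraries it called CTGF, CYR61 and AXL and 8.86% of the genes. In these alternatives CTGF and CYR61 kept a positive and AXL a negative log2 fold change.

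The difference between the lines in the response to siGGGGGC was tested over all 16 libraries. It was called for 0 of the 10 genes and 0% of 15887 genes by edgeR (1 of the 10, TEAD1, and 1054 of all genes had an unadjusted p under 0.05), and DESeq2 called 0 of the 10 and 19 genes in all. For AXL the log2 fold change in PC3 minus that in HeyA8 cells was -0.29 (95% interval -1.55 to 0.97, adjusted p = 0.968 by edgeR), and for CYR61 it was 0.60 (95% interval -0.364 to 1.56, adjusted p = 0.845). With each library left out in turn the 2 values ranged from -1.02 to 0.27 and from 0.152 to 1.12. For CTGF the same difference was 1.03 (SE 0.638), given without a test since its PC3 values chose the gene. With each library left out in turn it ranged from -0.0392 (without the 48 h siGGGGGC library of PC3) to 1.74. These intervals are wide, and differences of up to about their bounds were not detectable with 2 libraries per condition.

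The plot of log2 fold changes sets the lines and siRNAs side by side.

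**Figure D2:**
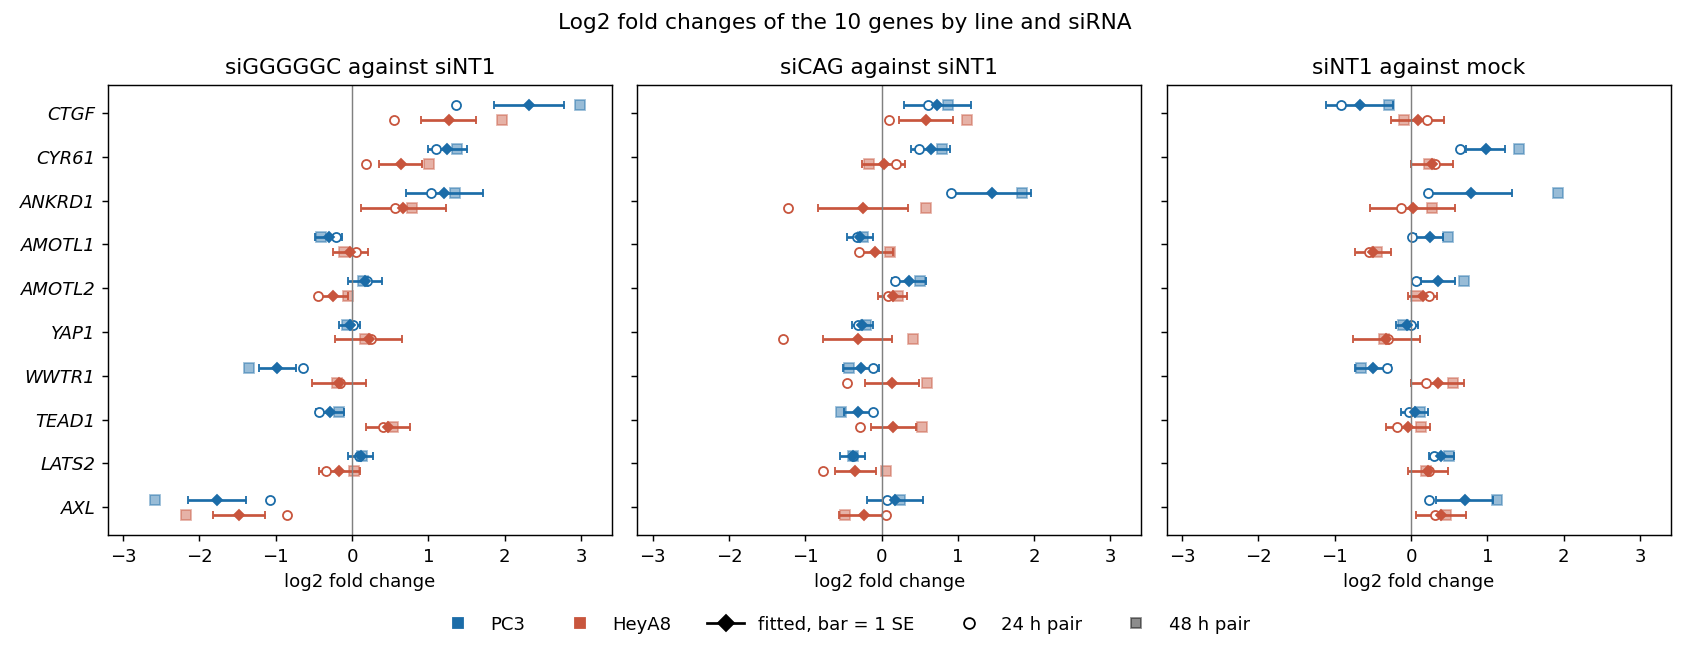
Log2 fold changes (x axis) of the 10 genes for siGGGGGC and siCAG against siNT1 and for siNT1 against mock, in PC3 (blue) and HeyA8 (red). Diamonds are the fitted values with 1 standard error, open circles the 24 h and pale squares the 48 h pair of libraries. For CTGF and AXL after siGGGGGC the 48 h pair lay farther from 0 than the 24 h pair in both lines.

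siCAG was compared with the same siNT1 libraries, so that its values and those of siGGGGGC share their controls. In PC3 cells these siNT1 libraries also took part in the choice of CTGF, and its values for siCAG or mock against them are not independent of that choice. In PC3 cells 0 of the 10 genes were called by edgeR, beside 1.20% of all genes, and 2 (CYR61 and ANKRD1) had an unadjusted p under 0.05, while DESeq2 also called 0. The log2 fold changes were 0.73 for CTGF (95% interval -0.281 to 1.74, adjusted p = 0.505), 0.65 for CYR61 (0.0562 to 1.24, adjusted p = 0.329) and 1.45 for ANKRD1 (0.27 to 2.63, adjusted p = 0.276), all by edgeR. The siCAG values of these 3 genes and of AMOTL2 lay above both siNT1 values. Those of AMOTL1, YAP1, WWTR1, TEAD1 and LATS2 lay below both. The share of all genes without overlap was not computed, so nothing is read from this. The log2 fold change of ANKRD1 ranged from 0.731 to 2.04 with 1 of the 4 libraries left out in turn. With only the 4 libraries of siCAG and siNT1, CTGF, CYR61 and ANKRD1 were called, beside 16% of all genes. AXL, in contrast with its values after siGGGGGC, had overlapping siCAG and siNT1 values, with a log2 fold change of 0.18 (95% interval -0.666 to 1.02, adjusted p = 0.868 by edgeR). This value ranged from -0.386 to 0.637 with 1 of the 4 libraries left out in turn.

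In HeyA8 cells siCAG gave 0 calls among the 10 genes by edgeR, beside 7.81% of all genes, with 0 at an unadjusted p under 0.05 and 0 by DESeq2. The siCAG libraries of the 2 times diverged for the co-activators. YAP1 had 2718 normalized counts at 24 h and 8102 at 48 h, against 6629 and 6093 after siNT1, so that its 24 h library was the lowest and its 48 h library close to the highest of the line. WWTR1 likewise had 2470 and 5590 normalized counts, the lowest and the highest of the line. LATS2 had 2783 and 3508, the lowest value of the line at 24 h and one within the range of the other conditions (2937 to 4741) at 48 h. Without the 48 h siCAG library, 2 of the 10 genes were called, YAP1 with a log2 fold change of -1.3 (adjusted p = 0.000844 by edgeR) and LATS2 with -0.709 (adjusted p = 0.0203), beside 32.9% of all genes. Without the 24 h library 1 was called, WWTR1 with a log2 fold change of 0.653 (adjusted p = 0.0235), beside 31.5% of all genes. Both shares of the 10 genes lay below those of all genes. The response to siCAG differed between the lines for 0 of the 10 genes by edgeR (0 at an unadjusted p under 0.05 and 0 by DESeq2) and for 0.636% of all genes, around a median over all genes of -0.125 on the log2 scale.

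Against mock, siNT1 gave 0 calls among the 10 genes in both lines by edgeR, beside 0.231% of all genes in PC3 and 0% in HeyA8 cells. In PC3 cells 2 of the 10 (CYR61 and LATS2) had an unadjusted p under 0.05. CYR61 had a log2 fold change of 0.98 (SE 0.258, adjusted p = 0.268 by edgeR) and was called by DESeq2 (adjusted p = 0.0485). CTGF was lower after siNT1 than in mock PC3 libraries at both times, with a log2 fold change of -0.67 (95% interval -1.69 to 0.338, adjusted p = 0.702 by edgeR). Without the 24 h mock library this value was 0.05, and with each library left out in turn it ranged from -1.2 to 0.05. In HeyA8 cells 0 of the 10 genes and 177 of all genes had an unadjusted p under 0.05, and DESeq2 called 0 of the 10 and 1 gene in all. Without the siCAG libraries 0 of the 10 were called as well, with 3 at an unadjusted p under 0.05. With only the 4 mock and siNT1 libraries of HeyA8, 5 of the 10 genes (CYR61, AMOTL1, YAP1, WWTR1 and AXL) and 11.8% of all genes were called.

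Between 24 and 48 h, over all conditions of a line, 0 of the 10 genes were called by edgeR, beside 0.0264% of all genes in PC3 and 0% in HeyA8 cells (879 of all genes there at an unadjusted p under 0.05), and DESeq2 called 0 of the 10 in either line. ANKRD1 had the most negative change with time, a log2 change of -1.06 (SE 0.369, adjusted p = 0.332 by edgeR) in PC3 and -1.34 (SE 0.416, adjusted p = 0.724) in HeyA8 cells. In mock cells it went from 173 to 24 normalized counts in PC3 and from 89 to 19 in HeyA8. AMOTL2 had a log2 change of -0.40 (SE 0.135, adjusted p = 0.724 by edgeR) in HeyA8 cells. Without the siCAG libraries of HeyA8, 0 of the 10 genes (3 at an unadjusted p under 0.05) and 0.0443% of all genes were called by edgeR.

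Between mock PC3 and mock HeyA8 libraries 6 of the 10 genes were called, 5 lower and 1 higher in PC3, beside 45.5% of all 15887 genes. CTGF had 76.28 and 47.62 CPM in PC3 and 485.5 and 468.9 CPM in HeyA8 cells, a log2 fold change of -2.89 (SE 0.501, adjusted p = 0.000829 by edgeR). CYR61 had 138.2 and 81.52 CPM in PC3 and 1619 and 1723 CPM in HeyA8 cells (log2 fold change -3.85, SE 0.363, adjusted p = 1.32e-05 by edgeR). AMOTL2, a scaffold that holds YAP1 at junctions, had 82.42 and 54.38 CPM against 746 and 555.4 CPM, with a log2 fold change of -3.44 (SE 0.264).

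LATS2, the kinase that phosphorylates YAP1 and WWTR1, had 20.5 and 18.98 CPM in mock PC3 and 144.8 and 104.6 CPM in mock HeyA8 libraries (log2 fold change -2.78, SE 0.24, adjusted p = 7.57e-06 by edgeR). AXL had 449.5 and 311.5 CPM against 1088 and 1274 CPM, with a log2 fold change of -1.64 (SE 0.454, adjusted p = 0.0124 by edgeR), and was not called without either PC3 mock library (adjusted p = 0.0509 and 0.0658). WWTR1 was the one gene of the 10 that was called higher in PC3 cells, with 258.2 and 404.5 CPM against 107 and 90.12 CPM (log2 fold change 1.77, SE 0.354, adjusted p = 0.00208 by edgeR). YAP1, with 144.4 and 157.7 CPM against 294.5 and 277.6 CPM, did not pass (log2 fold change -0.85, adjusted p = 0.0873 by edgeR), and was called in the fit with no term for time (-0.921, adjusted p = 0.0341). TEAD1, AMOTL1 and ANKRD1 were not called, with adjusted p-values of 0.404, 0.304 and 0.587 by edgeR.

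Levels of different genes were compared per kilobase of the canonical transcript. In mock PC3 libraries AXL came first, at 80.67 ± 20.68 CPM per kb (SD, n = 2), then WWTR1 at 65.78 ± 20.54 and CYR61 at 48.22 ± 17.58, and each of these overlapped its neighbour. YAP1, CTGF and TEAD1 followed at 27.97 ± 1.741, 26.5 ± 8.668 and 26.15 ± 1.377 CPM per kb, also overlapping, then AMOTL2, AMOTL1, LATS2 and ANKRD1. After siGGGGGC the order in PC3 cells was CYR61 at 227.1 ± 30.77 and CTGF at 88.84 ± 62.04 CPM per kb, with AXL next at 39.29 ± 21.09, which overlapped CTGF.

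In mock HeyA8 libraries CYR61 led at 733.6 ± 32.39 CPM per kb, before AXL at 250.4 ± 27.99, CTGF at 204.1 ± 5.017 and AMOTL2 at 133.7 ± 27.68, none of them overlapping. YAP1 stood at 52.96 ± 2.206 and WWTR1 at 19.57 ± 2.376 CPM per kb in HeyA8 cells, so that in mock libraries WWTR1 was the more abundant transcript of the pair in PC3 and YAP1 in HeyA8 cells. After siGGGGGC the pair overlapped in PC3 cells, at 26.61 ± 0.8283 for YAP1 and 23.47 ± 4.739 CPM per kb for WWTR1.

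**Figure D3:**
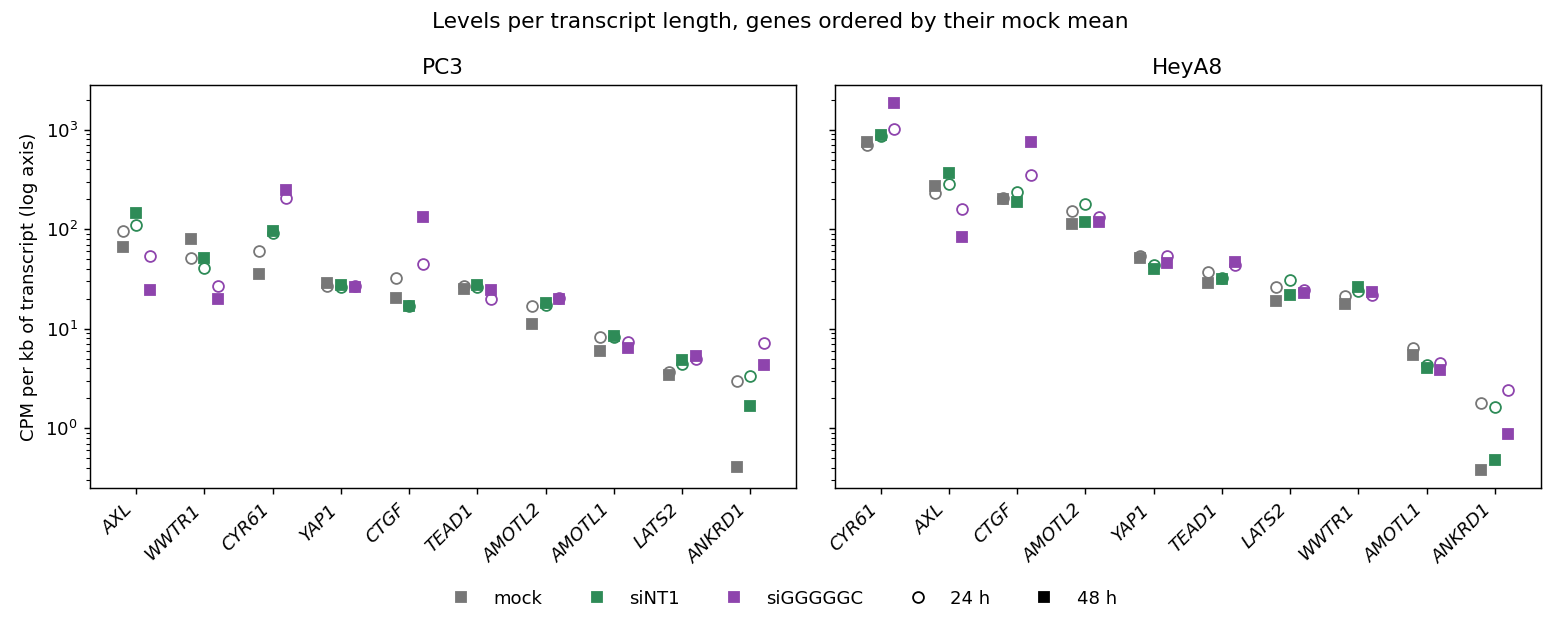
CPM per kb of canonical transcript (log axis) of the 10 genes, ordered by their mean in mock libraries of each line. Grey is mock, green siNT1 and purple siGGGGGC, with open circles for 24 h and squares for 48 h. CYR61 and CTGF stood at 48.22 and 26.5 CPM per kb in mock PC3 and at 733.6 and 204.1 in mock HeyA8 libraries.

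The wider pathway was read through lists of its genes. In the 22-gene signature of YAP/TAZ targets, 7 of the 21 genes tested in PC3 cells were called after siGGGGGC, 4 higher and 3 lower, beside 9.67% of all genes, and the median was 0.288 on the log2 scale, beside 0.00289 over all genes. This list holds 6 of the 10 genes and is read from the contrast that chose CTGF. Besides CTGF and CYR61 the higher genes were NUAK2, a kinase of the AMPK family, with 240 and 229 normalized counts after siNT1 and 628 and 798 after siGGGGGC, and CRIM1, a transmembrane protein that binds growth factors, with 5556 and 5199 against 11120 and 14661. The lower genes besides AXL were ASAP1, with 10889 and 13155 normalized counts against 6619 and 7011, and RBMS3, with 317 and 279 against 88 and 126. None of these 4 overlapped between the conditions, and since they are named for being called, nothing is read from this. In HeyA8 cells 0 of 22 signature genes were called by edgeR, the median log2 fold change was -0.224, and 15 of the 22 values were negative. NUAK2 and CRIM1 had log2 fold changes of 1.88 and 0.84 there (adjusted p = 0.314 and 0.28 by edgeR), with siGGGGGC values above those of siNT1 at both times.

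**Figure D4:**
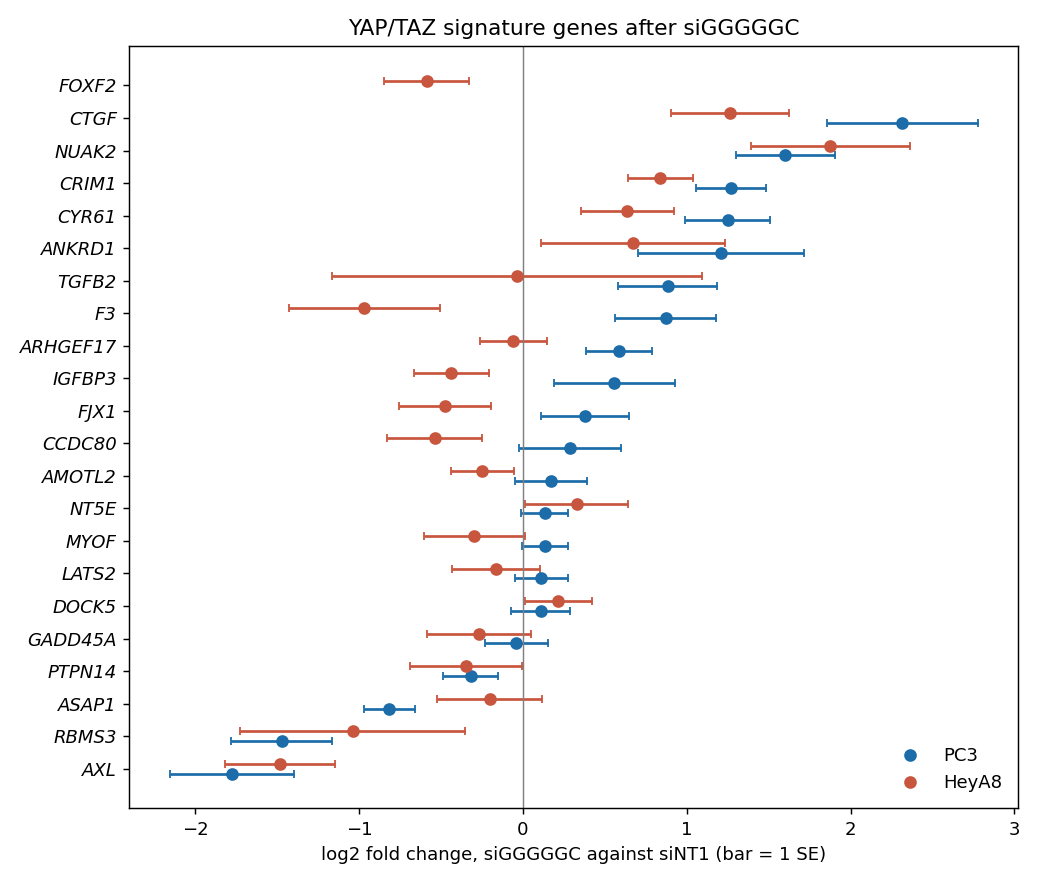
Log2 fold changes (x axis, bars of 1 standard error) of the 22 YAP/TAZ signature genes after siGGGGGC against siNT1, in PC3 (blue) and HeyA8 (red), ordered by the PC3 value. FOXF2 did not pass the filter on low counts in PC3 and is shown for HeyA8 alone. CTGF, NUAK2, CRIM1, CYR61, ANKRD1, NT5E and DOCK5 lay above 0 and AXL, RBMS3, ASAP1, PTPN14 and GADD45A below 0 in both lines.

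Upstream, 1 of 19 genes of the Hippo cascade was called in PC3 cells after siGGGGGC, beside 9.67% of all genes, the kinase TAOK3, with 1115 and 1062 normalized counts after siNT1 and 678 and 647 after siGGGGGC. The 2 most abundant genes of that list, MAP4K4 and DLG5 in PC3 and MAP4K4 and FRMD6 in HeyA8 cells, had medians of 18966, 16674, 25325 and 13518 normalized counts. Of 8 co-activators, TEADs and cofactors tested, 2 were called lower beside the same 9.67%, WWTR1 and VGLL3, a TEAD cofactor with 267 and 101 normalized counts after siNT1 and 59 and 49 after siGGGGGC. Of the angiomotins, 0 of 3 were called after siGGGGGC, and AMOT was called lower in PC3 cells after siCAG, with 85 and 100 normalized counts after siNT1 and 14 and 7 after siCAG (log2 fold change -3.14, adjusted p = 0.0128 by edgeR). In HeyA8 cells 0 of the 19, 0 of the 8 and 0 of the 2 tested were called after either siRNA by edgeR, beside 0% of all genes after siGGGGGC and 7.81% after siCAG.

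Of the CCN family, 4 of 6 genes were tested in PC3 cells and all 4 were called after siGGGGGC, in both directions, beside 9.67% of all genes. The family holds CTGF, which was chosen from this contrast. CTGF and CYR61 were higher, NOV had 1277 and 928 normalized counts after siNT1 and 575 and 298 after siGGGGGC, and WISP1 was near 0, with 12.3 and 9.25 against 0 and 1.03. Of the TAM group AXL was lower and MERTK, a second receptor of it, higher, with 103 and 147 normalized counts against 189 and 367, while TYRO3 and the ligand GAS6 were not called. GAS6 was called lower in HeyA8 cells after siCAG, whose libraries stood apart and gave calls for 7.81% of all genes, with 7564 and 9099 normalized counts after siNT1 and 3499 and 3167 after siCAG (log2 fold change -1.32, adjusted p = 0.0295 by edgeR).

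Of 8 TGF-beta targets, 2 were called higher and 1 lower in PC3 cells after siGGGGGC, beside 9.67% of all genes called in either direction. The log2 fold changes of the list were mixed, 5 positive and 3 negative. SMAD7, an inhibitor of the pathway, had 111 and 54 against 279 and 348 normalized counts in PC3 cells, and ID1 had 5953 and 1675 against 11860 and 5237. Of the SRF targets, cytoskeletal genes, 0 of 9 were called in PC3 cells after siGGGGGC, and their most abundant gene was FLNA in both lines (medians of 96390 and 71748 normalized counts). In HeyA8 cells after siCAG, whose libraries stood apart from the rest, 2 of 8 were called higher, beside 7.81% of all genes called in either direction: TAGLN (log2 fold change 1.27, adjusted p = 0.0382 by edgeR) and MYL9 (1.29, adjusted p = 0.0298). TAGLN had 298 and 102 normalized counts after siNT1 and 603 and 295 after siCAG, and MYL9 had 664 and 457 against 1460 and 1249.

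Of the 4 epithelial markers 1 was called in PC3 cells for siNT1 against mock and 1 after siCAG, beside 0.231% and 1.20% of all genes, CDH1 in both cases. CDH1, the epithelial cadherin, was higher after siNT1 than in mock PC3 libraries (log2 fold change 1.34, adjusted p = 0.0417 by edgeR) and lower after siCAG than after siNT1 (-1.60, adjusted p = 0.00656), comparisons that share the siNT1 libraries. It had 288 and 276 normalized counts in mock, 806 and 629 after siNT1, 1156 and 923 after siGGGGGC and 242 and 230 after siCAG. The more abundant keratin genes KRT8 and KRT18 were not called and had the opposite sign, with log2 fold changes of -0.30 and -0.30 for siNT1 against mock and 0.37 and 0.25 for siCAG against siNT1. EPCAM, the remaining marker, was not called and had the signs of CDH1. Its means were 469 normalized counts in mock, 851 after siNT1 and 749 after siCAG, so 2 markers were positive and 2 negative in each comparison. TMPRSS2 and PAX8 were called lower in PC3 cells after siGGGGGC, at log2 fold changes of -0.85 and -1.36. Their part in the values of the 10 genes was not tested.

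Between the mock lines 15 of 22 signature genes were called, 14 lower and 1 higher in PC3 cells, beside 45.5% of all genes called in either direction, and the median was -1.98 on the log2 scale, beside 0.0888 over all genes. F3, the tissue factor, had 1.227 and 0.6757 CPM in PC3 and 170.3 and 92.98 CPM in HeyA8 cells, and CCDC80 had 18.13 and 10.31 CPM against 2025 and 1718 CPM. TGFB2 was the one called higher, with 46.82 and 22.3 CPM against 1.05 and 0.3262 CPM. FOXF2 had 0 CPM in both mock PC3 libraries and 9.665 and 9.135 CPM in HeyA8. Of the Hippo cascade 10 of 19 were called, close to the 45.5% of all genes. Of these, 8 were lower in PC3 cells, with LATS2 and the kinase STK3 (7.947 and 8.255 CPM against 63.02 and 65.97 CPM) at the lowest fold changes, and 2 higher, NF2 (179.2 and 171.8 CPM against 40.18 and 41.72 CPM) and DLG5 (557.5 and 514 CPM against 83.48 and 73.08 CPM). TEAD4 and VGLL3 were lower and WWTR1, TEAD2 and VGLL4 higher in PC3 cells, and AMOT had 3.498 and 5.229 CPM in PC3 and 0 CPM in both mock HeyA8 libraries.

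The genes whose pattern over the 8 libraries of a line was most like that of CTGF were found by Pearson's r of log2 CPM among genes with a mean of at least 1000 normalized counts. They were GTF3C4, ZFR, DYRK1A, TTC1 and SEC22A in PC3 (r from 0.976 to 0.990 over 8 libraries, 6195 genes compared) and ZSWIM6, RIT1, PTX3, TTC17 and KDM3A in HeyA8 cells (r from 0.956 to 0.967, 5756 genes compared). SEC22A and PTX3 reached that mean only with the siGGGGGC libraries, PTX3 through that of 48 h (3399.9 normalized counts). Among the other 9 genes CYR61 was by Pearson's r the most like CTGF in both lines, at r = 0.654 in PC3 and 0.804 in HeyA8 cells, and AXL the least like it, at r = -0.814 and -0.847. By Spearman's rho TEAD1 (0.714) came before CYR61 (0.524) in HeyA8 cells, and WWTR1 (-0.643) was less like CTGF than AXL (-0.619) in PC3 cells. Without the 2 siGGGGGC libraries r was 0.201 and 0.0477 for CYR61 and 0.1 and -0.229 for AXL, so these likenesses rested on the siGGGGGC libraries. The libraries share the time points and the controls, and these values are a description.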

How the data were processed

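The deposited table holds raw read counts per gene for 16 libraries. Per the labels and the study's methods, the authors prepared paired-end ribosome-depleted total RNA libraries, trimmed the reads, aligned them to hg38 (STAR is among the tools listed) and counted exonic reads with HTSeq, without normalization. Columns were matched to libraries by their titles, and 0 columns belonged to no sample. Total counts per library are given with the results, and no count is corrected for PCR duplicates.

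Here edgeR 4.0.16 (R 4.3.3) was fitted within each line to 8 libraries with siRNA and time as terms (filterByExpr, TMM, quasi-likelihood test, Benjamini-Hochberg adjustment over all genes, threshold 0.05). A fit over 16 libraries gave the mock lines and the differences between lines. Values at a single time rest on 1 library each. CPM per kb used the canonical transcript length of GENCODE release 44. DESeq2 1.42.0, RLE size factors, other filters, other sample sets, mock as the control and libraries left out in turn were alternatives, and the fits without siCAG libraries were added after seeing the data. The test scripts were tested on simulated data.

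The 10 genes, the lists and the tests were chosen with earlier results of these data known. Named from each list are at most 3 called genes in each direction by fold change and the 2 most abundant, and the 5 genes most like CTGF. Of the list genes that this rule names, those not described in the text stay in the counts. Where an SD is given, it is over the 24 and 48 h libraries. Some genes of the lists are not reported here.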

Additional observations from a re-analysis of the deposited data

Results flagged for a closer look

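For 4 genes both times moved one way in PC3 and the opposite way in HeyA8 cells. After siGGGGGC, AMOTL2 stood at 0.172 (log2 fold change) in PC3 against -0.246 in HeyA8 cells, and TEAD1 at -0.291 against 0.467. The interaction term for TEAD1 was -0.77 (PC3 minus HeyA8), with an adjusted p of 0.751 by edgeR, and that for AMOTL2 was 0.41, with an adjusted p of 0.856. For siNT1 against mock, AMOTL1 stood at 0.244 in PC3 against -0.501 in HeyA8 cells and WWTR1 at -0.501 against 0.347, and the difference between the lines was not tested for this comparison. Each direction rests on 2 pairs of libraries per line, and some of these lie near 1. AMOTL2 at 48 h in HeyA8 cells stood at 0.968 times siNT1, with overlapping conditions, and AMOTL1 at 24 h in PC3 cells at 1.01 times mock. The share of all genes with such opposite signs was not computed, so nothing is read from these 4.

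The response to siCAG of IGFBP3, a secreted binding protein of insulin-like growth factors in the YAP/TAZ signature, differed between the lines by 2.687 on the log2 scale (PC3 minus HeyA8, standard error 0.519, adjusted p = 0.0494 by edgeR). Its normalized counts in PC3 cells were 1702 and 1279 after siNT1 and 3376 and 7440 after siCAG, and in HeyA8 cells 68039 and 56263 after siNT1 and 48074 and 22355 after siCAG. All 4 pairs of libraries held this direction. The siCAG libraries of HeyA8 cells are those that stood apart from the rest of the line, and the value without either of them is not given here. The call lay close to the threshold of 0.05, beside 0.636% of all genes called.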

How the results depend on the processing

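With RLE size factors, a filter of 1 CPM in 2 libraries or no filter the counts of called genes among the 10 were the same in each comparison. With DESeq2, 1 was called for siNT1 against mock in PC3 (CYR61, beside 1.76% of all genes) and 1 after siGGGGGC in HeyA8 cells (AXL). With only the 4 libraries of the 2 conditions compared, 3 were called after siCAG in PC3 (CTGF, CYR61 and ANKRD1), 3 after siGGGGGC in HeyA8 (CTGF, CYR61 and AXL), 1 for siNT1 against mock in PC3 (CYR61, beside 1.73% of all genes) and 5 for the same in HeyA8 cells (CYR61, AMOTL1, YAP1, WWTR1 and AXL), where 0 were called in the reported fits. With mock as the control, 1 was called after siCAG in PC3 cells (CYR61, beside 2.58% of all genes), and LATS2 changed sign, from -0.38 to 0.0199 on the log2 scale (adjusted p = 0.959 by edgeR). Without the siCAG libraries, chosen after seeing the data, 1 was called after siGGGGGC in HeyA8 cells (AXL). With 1 library left out in turn the count ranged from 0 to 4 after siGGGGGC in PC3 cells (beside 0 to 23.5% of all genes), from 0 to 2 after siCAG in HeyA8 cells (beside 0.291 to 32.9%), from 0 to 1 for the difference between the lines after siCAG (YAP1, without the 24 h or the 48 h HeyA8 siCAG library, beside 9.24% and 6.36%) and from 5 to 6 between the mock lines (beside 26.3 to 34.9%), and was 0 in the other comparisons. The 2 fits that called YAP1 gave it opposite signs. Its difference between the lines ranged from -0.753 (without the 24 h HeyA8 siCAG library) to 0.881 over all such fits. After siGGGGGC in PC3 cells the log2 fold change of CTGF ranged from 1.25 (without the 48 h siGGGGGC library) to 3.04 (without that of 24 h), and WWTR1 was not called in the fit of 4 libraries (adjusted p = 0.0626 by edgeR), with no term for time (0.0558) or without the siCAG libraries (0.0588). With mock as the control AXL was not called there and ANKRD1 was. With no term for time YAP1 was called between the mock lines, 7 genes in place of 6. The causes were not tested. The labels carry no replicate numbers to pair libraries by, and the term for time pairs the libraries of the same time. With 1 library left in a condition, that library was assumed to vary like the others, and with 2 libraries per condition small differences were not detectable.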
